A study of Rattus norvegicus with 30 samples.

Results

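The genes described here encode collagens, laminins and other structural proteins of the extracellular matrix (ECM), together with the enzymes that hydroxylate and cross-link collagen. They were chosen by name, as the collagen, laminin, fibrillin, fibulin, emilin, thrombospondin, lysyl oxidase, spondin, matrilin and link protein families plus single genes such as Eln, Postn, Comp and Acan. The rule found 63 of the 9999 gene names in the deposited tables, and no expression value was used in it. RNA was measured in 30 samples of bone marrow mesenchymal stem cells (BMSCs) from Sprague Dawley rats, in 10 groups of 3. The control group (CON) held undifferentiated cells at 0 h, and the other groups were cells after 3, 12 or 72 h in osteogenic (OS), adipogenic (AD) or chondrogenic (CH) medium, where the labels write 3d for 72 h. According to the methods of the study, the cells came from the femurs and tibias of female rats aged 3 weeks, were used at passage 2, were induced as flat cultures in commercial media, and were pooled from 3 cultures into each sample, so the p-values below measure the spread between such pools. All 3 lineages were compared with the same 3 CON samples, and no uninduced cells of 3, 12 or 72 h were analysed here, so time in culture and the medium cannot be told apart in comparisons with CON.

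Fibrillar collagens form the load-bearing fibrils of bone and cartilage, and smaller collagens such as type IX sit on the fibril surface. Basement membranes are sheets of network-forming collagen and of laminins, each a trimer of an alpha, a beta and a gamma chain. Elastic fibres are built from elastin on a scaffold of fibrillins, fibulins and emilins. Prolyl and lysyl hydroxylases modify collagen chains inside the cell, and lysyl oxidases cross-link collagen and elastin outside it. Cartilage matrix is known for type II, IX and XI collagen, aggrecan, link proteins, matrilins and Comp, bone matrix for type I collagen, and fat cells for a sheath of basement membrane.

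The values are CPM (counts scaled to a common library total), with no gene length in them, so levels are compared between samples and not between genes. The total per sample was 3899609 to 9046719 reads, lowest in CH at 72 h (3899609 to 4523111), and 3 reads, taken as the floor of detection, were worth 0.332 to 0.769 CPM. Floors cover counting error only. Of the 63 members, 34 reached 1 CPM in at least 3 samples and were tested (54.0%, against 43.6% of all names). The other 29 were below that filter, and 17 of these had at most 3 reads in every sample. A low value was not read as absence of expression, because genes that every cell uses were also listed near 0. How completely the counting captured the transcripts of each gene was not tested, so a level below is the level in these tables, compared between samples. Of 24 such genes looked up after some values had been seen, 11 stayed under 10 CPM in all samples, among them Actb (0 to 5.39 CPM) and Vim (0 to 1.58 CPM), while 8 had a median of at least 100 CPM. Of the stromal markers, Thy1 was at 7736 to 8280 CPM and Itgb1 at 7259 to 8160 CPM in CON, but Eng was at 0 to 0.143 CPM. Of 8 blood cell markers 3 were listed and all 3 stayed under 1 CPM in every sample. Many genes of the same families, among them Col1a1, Col1a2, Col3a1, Fn1, Sparc, Bgn, Tnc, Thbs1, Fbn1 and Plod2, were not analysed here.

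Single samples stood apart in 3 groups. For the 10 members with a median of at least 10 CPM, each sample was set against the mean of the other 2 of its group. In replicate 3 of OS at 3 h, 6 of the 10 members were at least 1.5-fold higher than in the other 2 samples (median ratio 1.58). In replicate 1 of AD at 12 h, 6 were at least 1.5-fold higher and 1 lower (median ratio 1.52). In replicate 3 of AD at 72 h, 6 were at least 1.5-fold lower and 1 higher (median ratio 0.619). In CON, in AD and CH at 3 h and in OS at 12 h, none of the 10 reached that bound in any sample. The genes in the tables held 38.9 to 71.4% of the total reads of a sample, and this share also differed in the 3 samples. It was 68.8% in replicate 3 of OS at 3 h (63.1% in each other sample of the group). In replicate 1 of AD at 12 h it was 64.6% (54.2 and 54.3% in the others), and in replicate 3 of AD at 72 h 38.9% (47.9 and 49.0%). What set these samples apart was not tested, and the counts of calls and the calls lost without them are given.

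**Figure D1:**
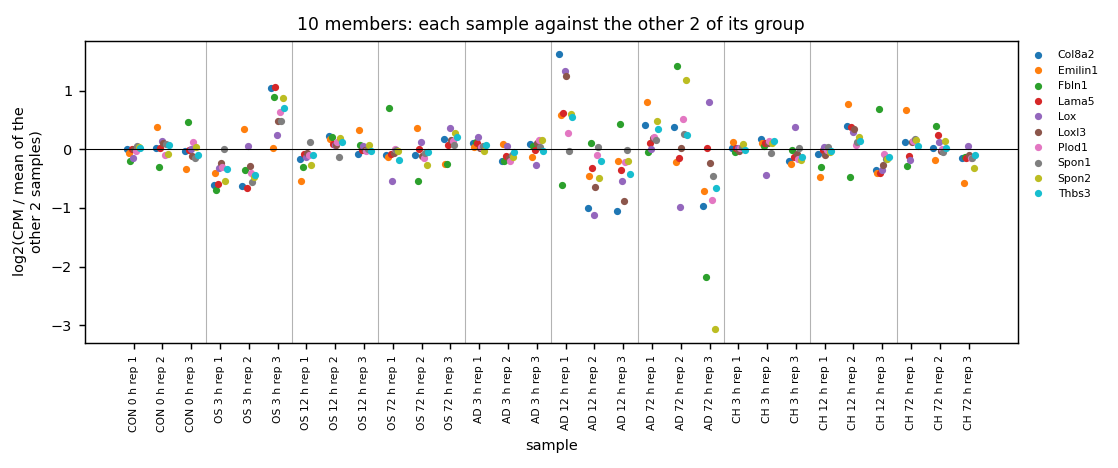
Ratio (log2) of each sample's CPM to the mean of the other 2 samples of its group, for the 10 members with a median of at least 10 CPM. Each point is 1 gene in 1 sample, and the points of replicate 3 of OS 3 h and replicate 1 of AD 12 h lie mostly above 0, those of replicate 3 of AD 72 h mostly below.

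Against CON, more members were higher than lower in chondrogenic medium, and more were lower than higher in adipogenic medium, with the most calls at 72 h. A member was called when its log2 fold change, on the log2(CPM + 1) scale, was 1 or more in either direction with a Benjamini-Hochberg adjusted p under 0.05 over all 4363 tested genes in limma. In CH at 72 h, 14 members rose and 5 fell (19 of 34), beside 11.6% and 6.37% of all tested genes, 18% in all. In AD at 72 h, 2 rose and 12 fell (14 of 34), beside 6.19% and 9.08% of all tested genes, 15.3% in all. In OS at 72 h, 4 rose and 5 fell (9 of 34), beside 7.2% and 5.29% of all tested genes, 12.5% in all. The pseudocount of 1 understates the change of low genes, and 4 of the 34 (Col11a2, Comp, Eln and Fbln2) passed the filter only through the samples of 1 group (CON, CH at 72 h, OS at 72 h and CH at 3 h, in that order), so the counts of tested members are a description and no p is given for these 4 where that group is compared with another. In bulk samples such as these, fewer cells of a type and less RNA per cell cannot be told apart.

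At 12 h, 8 members rose and 1 fell in CH (9 of 34), beside 9.44% and 5% of all tested genes, 14.4% in all. In AD at 12 h, 1 rose and 5 fell (6 of 34), beside 8.14% and 5.55% of all tested genes, 13.7% in all. In OS at 12 h, 3 rose and 7 fell (10 of 34), beside 14.7% and 7.15% of all tested genes, 21.8% in all. At 3 h, 4 rose and 1 fell in CH (5 of 34), beside 13.1% and 4.88% of all tested genes, 18% in all. In AD at 3 h, 1 rose and 4 fell (5 of 34), beside 12.4% and 6.42% of all tested genes, 18.8% in all. In OS at 3 h, 4 rose and 5 fell (9 of 34), beside 11.7% and 6.67% of all tested genes, 18.4% in all. Without the single samples that stood apart, 15 members were called in AD at 72 h (12 of the 14 among them), 8 in AD at 12 h (all 6 among them) and 9 in OS at 3 h (8 of the 9 among them). The split at 3 and 12 h moved with the scaling of samples. After median-ratio scaling it was 3 higher and 4 lower in CH at 3 h, 3 and 6 in OS at 3 h, and 2 and 8 in OS at 12 h, while CH at 12 and 72 h kept 8 and 1, and 14 and 5. Over all tested genes, higher ones made up 40.5 to 72.9% of the calls in the 9 groups as reported and 41.8 to 63.0% after that scaling. It shifted the median log2 fold change of all genes by -0.21 in CH at 3 h, by -0.12 and -0.17 in OS at 3 and 12 h, by -0.15 in AD at 3 and at 12 h, by -0.14 in CH at 12 h and by 0.11 in AD at 72 h. Rescaling to the listed genes moved the split at 72 h. It gave 12 higher and 5 lower in CH, beside 9.83% and 8.71% of all tested genes, and 3 and 10 in AD, beside 9.56% and 7.66%.

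The median log2 fold change of the 34 members was 0.34 in CH at 72 h (0.24 with genes at the floor set to their bound), beside 0.01 over all tested genes. It was 0.35 in CH at 3 h (0.27 with the bounds) and 0.35 at 12 h, beside 0.21 and 0.11. It was -0.25 in AD at 72 h, beside -0.05. In the other 5 groups it lay between -0.18 and 0.00, beside 0.08 to 0.15 over all genes. Of the 34 members, 31 were called in at least 1 of the 9 comparisons, 13 of them only higher, 9 only lower and 9 in both directions. Col16a1, Col4a2 and P4ha1 were called in none.

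Marker genes of cell types also moved. The 6 listed stromal cell markers summed to 16085 to 16892 CPM in CON, 15633 to 17096 CPM in OS, 9106 to 9584 CPM in CH and 4112 to 4779 CPM in AD at 72 h. Thy1 fell in OS, CH and AD at 72 h (log2 fold changes -1.12, -1.76 and -4.24) and Itgb1 in AD (-1.03). The 5 listed smooth muscle and pericyte markers summed to 122 to 135 CPM in CON, 86.3 to 95.7 CPM in OS, 155 to 165 CPM in CH and 9.93 to 13.0 CPM in AD at 72 h, where Cnn1 (-4.85), Cspg4 (-2.62) and Tagln (-1.11) fell. In OS Cnn1 fell (-5.21) and Cspg4 rose (1.56), and in CH Cspg4 rose (1.49). The 6 listed adipocyte markers, nearly all Lpl, summed to 664 to 778 CPM in CON, 1041 to 1146 CPM in OS, 1163 to 3221 CPM in AD and 14.4 to 15.3 CPM in CH at 72 h. Lpl (1.27) and Plin1 (1.57) rose in AD and Lpl fell in CH (-5.59), while Pparg, the master regulator of fat cells, rose in OS (1.60) and stayed at or under 0.950 CPM in AD at 72 h. The 7 listed osteoblast markers, mostly Ibsp, summed to 2.93 to 3.18 CPM in CON, 3.47 to 5.77 CPM in OS, 1.27 to 3.92 CPM in AD and 202 to 320.3 CPM in CH at 72 h, while Sp7, Alpl and Dmp1 stayed under 1 CPM in every sample. The 2 tested ones, Ibsp and Phex, were called in no OS group (0.06 and 0.41 at 72 h). Ibsp rose in CH at 3, 12 and 72 h (1.20, 1.93 and 6.10) and is also counted among the other matrix genes below. The 3 listed endothelial markers summed to 0.740 to 7.08 CPM in all groups, where Tek rose in OS and AD at 3 h (1.33 and 1.68) and in OS at 72 h (2.12), and Vwf fell at 12 h in OS, AD and CH (-1.68, -1.23 and -1.09).

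At 3 h the smooth muscle and pericyte markers summed to 388 to 710.3 CPM over the 3 media, and Cnn1 (2.13, 1.80 and 2.31) and Tagln (2.17, 1.64 and 2.28) rose in OS, AD and CH. At 12 h these markers summed to 231 to 235 CPM in OS, 31.9 to 62.2 CPM in AD and 553 to 584 CPM in CH, where Cnn1 and Tagln were still higher than in CON (2.13 and 2.34), while Cnn1 fell in AD (-2.34). Lpl fell in OS and CH at 3 h (-1.40 and -1.54) and 12 h (-2.60 and -3.05). The stromal markers summed to 9411 to 23217 CPM at 3 and 12 h, where Cd44 rose in OS at 3 and 12 h (1.49 and 1.003) and in AD at 3 h (1.03). Cspg4 rose in OS and CH at 3 h (2.17 and 2.78) and 12 h (2.34 and 1.90), and Lep in CH at 12 h (1.25). Of the chondrocyte markers Sox9 rose in CH at 3, 12 and 72 h (3.62, 3.70 and 4.72) and in OS at 3 h (1.05), and fell in OS at 12 h (-1.37) and in AD at all 3 times (-1.45, -2.90 and -1.50). The part of these markers in the results for matrix genes was not tested.

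**Figure D2:**
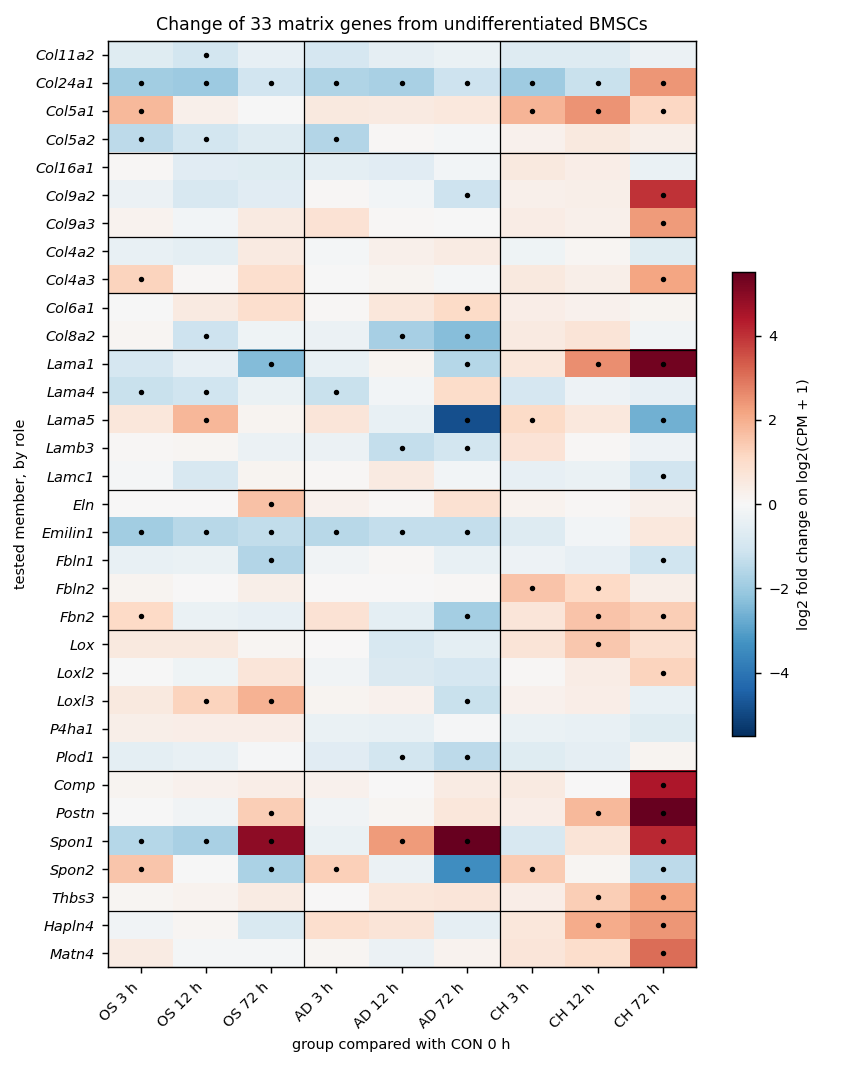
Log2 fold change against CON on the log2(CPM + 1) scale for 33 of the 34 tested members (rows, by role) in the 9 induced groups (columns), with a dot where the member was called. Of the members plotted, 14 were called higher and 4 lower in CH 72 h, and 2 higher and 11 lower in AD 72 h.

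**Figure D3:**
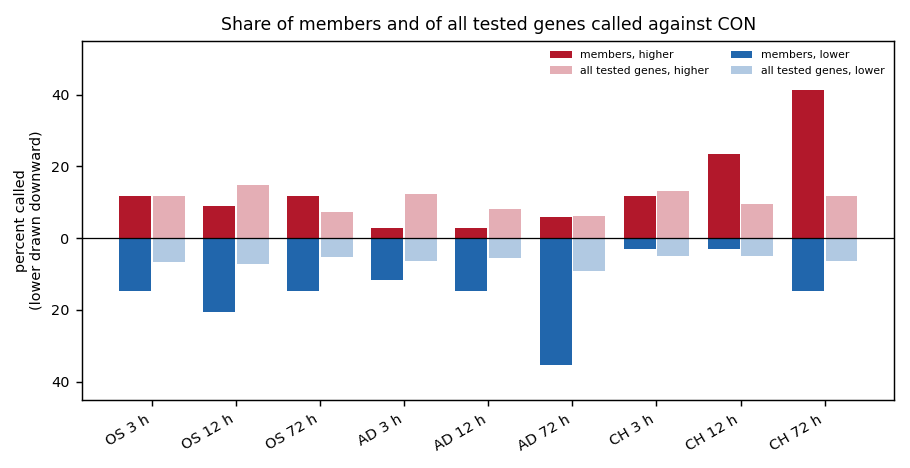
Percent of the 34 tested members (dark bars) and of all 4363 tested genes (pale bars) called higher (upward) or lower (downward) than CON in each induced group. In CH 72 h 41.2% of members and 11.6% of all genes were higher, and in AD 72 h 35.3% of members and 9.08% of all genes were lower.

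Comp, Postn, Matn4, Hapln4 and Thbs3 were highest in chondrogenic medium at 72 h, and Postn, Hapln4 and Thbs3 were already called higher than CON at 12 h. Comp, a pentameric glycoprotein that binds collagen in cartilage and tendon, was at 0, 0.139 and 0 CPM in CON and at 25.1, 20.3 and 19.3 CPM in CH at 72 h. No other sample was above 0.881 CPM. CON held at most 1 read per sample, so the rise was at least 47.5-fold, taking 3 reads per sample in CON as the floor (log2 fold change 4.43, SE 0.23). Postn, a matricellular protein of periosteum and tendon, was at 0.139 to 0.152 CPM in CON, 4.91, 1.4 and 3.33 CPM in CH at 12 h and 48.0, 46.9 and 54.5 CPM in CH at 72 h. The rise was at least 7.06-fold at 12 h (adjusted p = 8.65e-06) and at least 109-fold at 72 h (log2 fold change 5.47, SE 0.29, adjusted p = 8.09e-16). In OS at 72 h Postn was at 1.19, 2.65 and 2.26 CPM, at least 4.47-fold above CON (adjusted p = 0.0004), and the OS and CH samples of 72 h did not overlap.

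Matn4, a matrilin that joins matrix filaments, was at 1, 0.557 and 0 CPM in CON and at 14.4, 9.95 and 9.78 CPM in CH at 72 h (log2 fold change 3.06, SE 0.28, adjusted p = 2.15e-10). In RefSeq its gene overlaps Rbpjl, so reads of the pair may be hard to separate. Hapln4, a link protein that ties proteoglycans to hyaluronan, rose earlier, from 0.286, 1.53 and 1.36 CPM to 6.21, 7.01 and 8.24 CPM at 12 h and 9.74, 9.73 and 9.12 CPM at 72 h (log2 fold changes 2.04 and 2.41, SE 0.32 each, adjusted p = 5.37e-06 and 2.87e-07). Thbs3, a thrombospondin of developing skeleton, rose from 101, 104 and 95.4 CPM to 257, 277 and 244 CPM at 12 h and 470, 464 and 439 CPM at 72 h of CH (log2 fold changes 1.36 and 2.18, SE 0.16 each, adjusted p = 6.75e-08 and 2.92e-12). It was called in no OS or AD group. The cartilage and large proteoglycan list had 9 members, and the 2 that were tested, Matn4 and Hapln4, both rose in CH at 72 h, beside 11.6% of all tested genes. The defining cartilage members did not pass the filter: Acan reached at most 1 read and Col2a1 at most 3 reads in any sample (0.769 CPM, in CH at 72 h). Sox9, the transcription factor of the chondrocyte lineage and no member, was at 46.6 to 50.8 CPM in CON and 1152 to 1489 CPM in CH at 72 h.

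Of the 3 tested FACIT collagens, which bind to fibril surfaces, Col9a2 and Col9a3 rose in CH at 72 h, beside 11.6% of all tested genes. Col9a2 was at 1, 1.95 and 0.758 CPM in CON, 2.17, 2.49 and 0.792 CPM in CH at 12 h and 46.4, 32.1 and 24.0 CPM in CH at 72 h (log2 fold change at 72 h 3.96, SE 0.34, adjusted p = 6.72e-11). In AD at 72 h it had no read in any sample, at least 2.32-fold below CON (adjusted p = 0.0103), a call that was lost without replicate 2 of CON (log2 fold change -0.91, adjusted p = 0.0698). Col9a3, its partner chain, had at most 3 reads in CON and was at 4.62, 6.41 and 3.56 CPM in CH at 72 h, at least 10.7-fold higher (log2 fold change 2.35, SE 0.31, adjusted p = 3.03e-07). Col9a1, the remaining chain, was not tested and reached 6 reads (1.54 CPM) in a sample of CH at 72 h. Col16a1 was at 1.05, 1.61 and 1.35 CPM in CH at 3 h and at most 0.315 CPM in AD at 3 h, and was called between these groups (log2 difference 1.09) but in no comparison with CON. Its mean in CH at 72 h was 0.233 CPM.

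**Figure D4:**
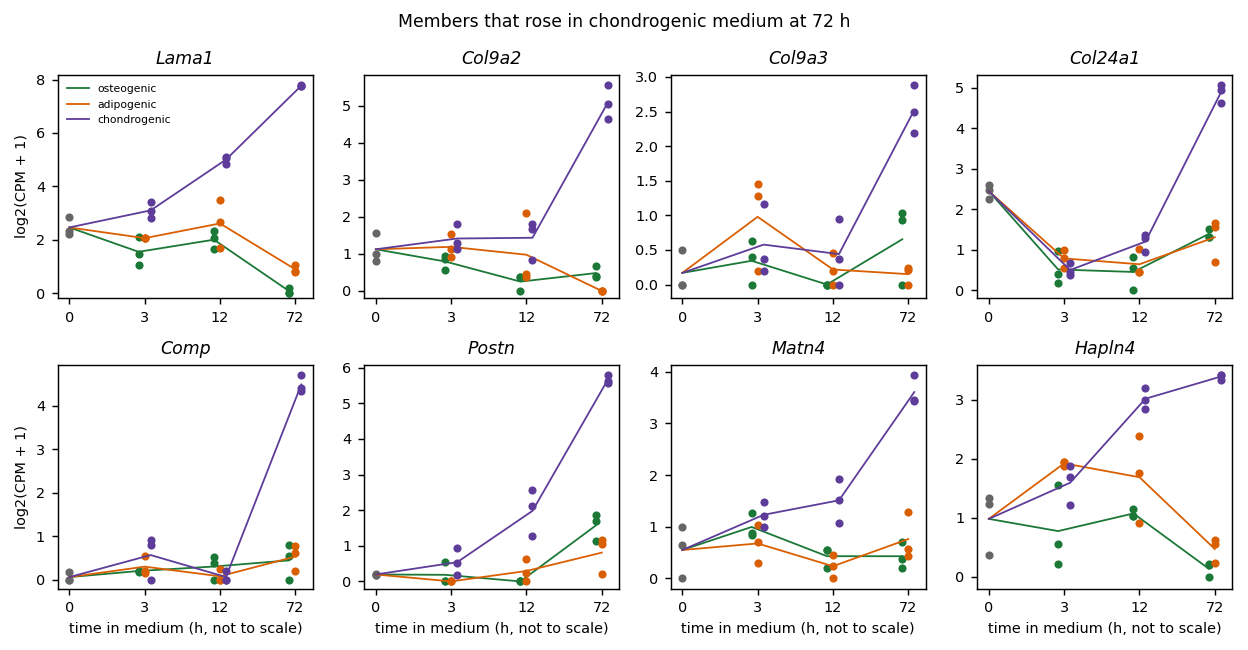
Values (log2(CPM + 1)) of 8 members against time in medium, with a point for each sample, grey for CON, and lines through the means of osteogenic, adipogenic and chondrogenic samples. All 8 have their highest samples in chondrogenic medium at 72 h, and Lama1, Postn and Hapln4 are already above CON at 12 h.

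Fibrillar collagens moved in different directions. Col24a1, a minor fibrillar collagen of developing bone, was the member called in all 9 comparisons with CON. It was at 5.01, 4.60 and 3.79 CPM in CON, at 0 to 2.14 CPM in the OS and AD groups, and at 0.300 to 1.59 CPM in CH at 3 and 12 h, with no overlap with CON. The log2 fold changes of these 8 groups lay between -1.99 (OS at 12 h, where 1 sample had no read) and -1.06 (OS at 72 h, adjusted p = 0.00279). In CH at 72 h it was at 32.6, 29.6 and 23.6 CPM, above every other sample (log2 fold change 2.43, SE 0.27, adjusted p = 9.94e-09). The fall in OS at 72 h was not called without replicate 1 of CON (-0.98) or with a pseudocount of 0.1 (adjusted p = 0.0959), nor that in AD at 72 h without its replicate 3 (-0.84).

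Col5a1 encodes a chain of type V collagen, which sits inside type I fibrils and sets their diameter. It was at 3.29, 2.51 and 3.18 CPM in CON and rose in CH at all times, to 14.5, 12.6 and 12.9 CPM at 3 h, 20.1, 23.1 and 19.8 CPM at 12 h and 8.21, 7.07 and 8.45 CPM at 72 h. The log2 fold changes were 1.85, 2.46 and 1.16 (SE 0.24 each, adjusted p = 1.99e-07, 1.37e-09 and 0.000234), and that at 72 h was 0.97 and not called after rescaling to the listed genes. It also rose in OS at 3 h, to 11.4, 8.53 and 20.2 CPM (log2 fold change 1.77, adjusted p = 3.79e-07), and the samples of OS at 12 h (2.71 to 5.38 CPM) and 72 h (2.54 to 3.28 CPM) were not called. Its partner chain Col5a2 was at 4.30, 2.79 and 4.55 CPM in CON and fell in OS at 3 h, to 0.470, 1.90 and 0.277 CPM (log2 fold change -1.45, SE 0.35, adjusted p = 0.0013), and in AD at 3 h, to 0.774, 0.472 and 0.446 CPM (-1.63, adjusted p = 0.00039). The pair thus went opposite ways in OS at 3 h. Col11a2, a chain of type XI collagen, was at 1.43, 0.418 and 1.36 CPM in CON and had no read in OS at 12 h (at least 2.35-fold lower). Without replicate 1 or 3 of CON its log2 fold change was -0.87 or -0.89 and it was not called. The fall of Col5a2 in OS at 12 h (-1.02, adjusted p = 0.0188) was lost without any of 4 of the 6 samples, with values of -0.81 to -0.97.

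Of the network and short-chain collagens, Col8a2 lost most in adipogenic medium. Col8a2 is a chain of type VIII collagen, known from the basement membrane of the cornea. It was at 861, 873 and 851 CPM in CON, 509, 169 and 163 CPM in AD at 12 h and 212, 210 and 109 CPM in AD at 72 h (log2 fold changes -1.83 and -2.34, SE 0.29 each, adjusted p = 5.92e-06 and 8.1e-08). Without replicate 1 of AD at 12 h the change at 12 h was -2.37, and without replicate 3 of AD at 72 h that at 72 h was -2.03. In OS at 12 h it fell to 367, 439 and 383 CPM (log2 fold change -1.12, adjusted p = 0.00167) and stood at 709, 710 and 802 CPM at 72 h, where it was not called. In CH it was at 1197 to 1693 CPM at 12 h, above all CON samples but short of the threshold (log2 fold change 0.70, adjusted p = 0.0543). Replicate 3 of OS at 3 h was at 1500 CPM, against 730 and 723 CPM in the other 2.

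Col4a3, a type IV collagen chain of specialised basement membranes, had at most 3 reads in CON. It rose in OS at 3 h, to 1.41, 1.90 and 2.35 CPM (at least 4.15-fold, adjusted p = 0.000251), and in CH at 72 h, to 3.59, 5.31 and 5.11 CPM (at least 10.3-fold, log2 fold change 2.18, SE 0.25, adjusted p = 2.89e-08). Col4a2, a chain of the type IV collagen found in most basement membranes, was at 1.15, 3.76 and 2.27 CPM in CON and was called in no comparison with CON, and its partner Col4a1 was not tested (at most 9 reads). Col6a1, a chain of the beaded type VI microfibrils, had at most 2 reads in CON and was at 1.60, 1.95 and 0.950 CPM in AD at 72 h, at least 3.30-fold higher (log2 fold change 1.05, adjusted p = 0.000589). Without replicate 2 of CON or of AD at 72 h its log2 fold change was 0.93 or 0.92 and it was not called.

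Among the tested laminins, the widest changes were those of Lama1 and Lama5. Lama1, the alpha chain of the laminin first made in the embryo, was at 4.01, 6.13 and 3.64 CPM in CON. In CH it was at 7.34, 9.69 and 6.02 CPM at 3 h, where it was not called, 32.6, 33.3 and 27.4 CPM at 12 h and 222, 217 and 213 CPM at 72 h (log2 fold changes at 12 and 72 h 2.54 and 5.31, SE 0.31 each, adjusted p = 7.53e-08 and 7.23e-15). In OS at 72 h it had at most 1 read per sample, at least 9.81-fold below CON (adjusted p = 3.11e-07), and in AD at 72 h it was at 0.712, 1.06 and 0.792 CPM (log2 fold change -1.57, adjusted p = 0.000133). The CH samples of 12 and 72 h lay above every OS and AD sample, of which the highest was 10.1 CPM.

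Lama5, the alpha chain of the laminin of most adult basement membranes, took another course in each medium. It was at 868, 878 and 862 CPM in CON. In OS it was at 1068, 1025 and 2190 CPM at 3 h, 3003, 3250 and 3096 CPM at 12 h and 945, 982 and 1008 CPM at 72 h, and of these only 12 h was called (log2 fold change 1.84, SE 0.18, adjusted p = 8.11e-10). In AD it was at 1434, 1294 and 1359 CPM at 3 h, 866, 572 and 561 CPM at 12 h and 31.5, 28.0 and 30.3 CPM at 72 h (log2 fold change at 72 h -4.82, adjusted p = 3.43e-19). In CH it was at 1838, 1917 and 1714 CPM at 3 h (log2 fold change 1.07, adjusted p = 1.58e-05), 1303, 1554 and 1084 CPM at 12 h and 133, 156 and 130 CPM at 72 h (-2.64, adjusted p = 4.22e-13). All 9 samples of 3 h were above all CON samples, and the samples of AD and CH at 72 h were below every other sample. The rise in CH at 3 h was not called after median-ratio scaling (0.73), after rescaling to the listed genes (0.83) or with edgeR (0.71). Without replicate 3 of OS at 3 h its log2 fold change there was 0.27 in place of 0.62, neither called.

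Lamb3 is a chain of the laminin of epithelial basement membranes. It was at 2.86, 0.975 and 1.36 CPM in CON and had at most 1 read in AD at 12 h, at least 3.13-fold lower (adjusted p = 0.00364). Its fall in AD at 72 h, just past the threshold (adjusted p = 0.025), was lost without replicate 1 of CON (-0.72), without replicate 2 (-0.81) or 3 of AD (adjusted p = 0.0501), with no filter (adjusted p = 0.0582) and after rescaling to the listed genes (-0.98). Lama4, an alpha chain of vascular and mesenchymal basement membranes, was at 1.58, 0.836 and 1.67 CPM in CON and had no read in OS or AD at 3 h, at least 2.87-fold and 2.88-fold lower (adjusted p = 0.000185 and 0.000192). It also fell in OS at 12 h (at least 2.98-fold, adjusted p = 0.000569), though not without replicate 3 of CON (-0.99). In AD at 72 h it was at 4.10, 3.55 and 3.33 CPM, above every CON sample, with a log2 fold change of 0.997 that was just short of the threshold (adjusted p = 0.00204) and past it without replicate 3 of AD. Lamc1, the common gamma chain, was called lower in CH at 72 h (1.54, 0.884 and 0 CPM against 2.29, 2.93 and 2.27 CPM, log2 fold change -1.05, adjusted p = 0.0269), a call lost without replicate 1 of CON (adjusted p = 0.0501), replicate 2 of CON (-0.96) or replicate 3 of CH (-0.67) and with no filter (adjusted p = 0.0563).

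Of the 5 tested elastic fibre genes, Emilin1 fell in every osteogenic and adipogenic group, and the others were called in fewer groups. Emilin1, a glycoprotein between elastin and microfibrils, was at 54.7, 66.7 and 48.1 CPM in CON and fell in all 6 OS and AD groups, with samples between 11.8 and 31.7 CPM and no overlap with CON. Its log2 fold changes were -1.91, -1.51 and -1.34 in OS and -1.51, -1.31 and -1.32 in AD at 3, 12 and 72 h (SE 0.24 each, adjusted p from 7.81e-08 to 4.74e-05). In CH it was at 36.1, 35.7 and 30.2 CPM at 3 h, 42.0, 72.9 and 43.4 CPM at 12 h and 116, 80.3 and 66.0 CPM at 72 h, with no call (log2 fold changes -0.71, -0.13 and 0.60). Fbn2, a fibrillin of developing microfibrils, was at 5.87, 4.04 and 7.73 CPM in CON and rose in CH to 16.3, 23.8 and 17.9 CPM at 12 h and 17.2, 14.4 and 16.5 CPM at 72 h (log2 fold changes 1.58 and 1.34, adjusted p = 2.16e-05 and 0.000192). It fell in AD at 72 h to 1.60, 1.42 and 0 CPM (-1.86, adjusted p = 2.03e-06). At 3 h its samples lay at 8.97 to 16.5 CPM in all 3 media, called in OS alone (1.09, adjusted p = 0.00157), where the call was lost without replicate 2 of CON (0.89), without replicate 3 of OS (0.95), after both rescalings (0.88 and 0.86), with edgeR (0.95) and with a pseudocount of 0.1 (adjusted p = 0.0927).

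Fbln1, a fibulin bound to fibronectin and elastic fibres, was at 29.6, 28.3 and 39.9 CPM in CON and fell in OS at 72 h to 13.4, 7.65 and 8.89 CPM (log2 fold change -1.63, SE 0.35, adjusted p = 0.000458). In CH at 72 h it was at 12.8, 17.5 and 13.8 CPM (-1.09, adjusted p = 0.0127), a call lost without replicate 3 of CON (-0.94) or replicate 1 of CH (-1.01, adjusted p = 0.0558). In AD at 72 h its samples were at 29.2, 51.1 and 8.87 CPM, the lowest being replicate 3. Fbln2 had no read in CON and rose in CH at 3 h, to 1.20, 2.64 and 2.21 CPM (at least 4.44-fold), and at 12 h, to 0.578, 0.935 and 2.06 CPM (at least 2.62-fold, adjusted p = 0.000166), the latter not called without replicate 3 of CH at 12 h (0.81). Eln, elastin itself, had no read in CON or in OS at 3 and 12 h and was at 2.24, 1.56 and 2.56 CPM in OS at 72 h, at least 4.66-fold higher. In AD at 72 h it was at 2.49, 0.709 and 0 CPM and was called only without replicate 3.

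Among the enzymes, the lysyl oxidase family differed by medium. Loxl3, which oxidises lysines of collagen and elastin, was at 635, 666 and 604 CPM in CON. It rose in OS to 1424, 1524 and 1460 CPM at 12 h and 2322, 2256 and 2569 CPM at 72 h (log2 fold changes 1.21 and 1.90, SE 0.19 each, adjusted p = 5e-06 and 3.24e-09) and fell in AD at 72 h to 298, 275 and 244 CPM (-1.22, adjusted p = 7.12e-06). The OS samples of 72 h were above every other sample and those of AD at 72 h below every other sample. The rise at 12 h was not called after median-ratio scaling (0.87), after rescaling to the listed genes (0.85) or with edgeR (0.81), and the fall in AD was not called after rescaling to the listed genes (-0.96). In AD at 12 h the samples were at 1322, 586 and 520 CPM, and the log2 fold change was 0.22 with and -0.20 without replicate 1. In RefSeq Loxl3 overlaps Htra2, so its reads may include those of a neighbour.

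Lox itself was at 27.8, 31.6 and 29.7 CPM in CON and rose in CH at 12 h to 85.9, 96.5 and 71.6 CPM (log2 fold change 1.47, SE 0.26, adjusted p = 2.61e-05). At 72 h of CH it was at 51.3, 59.0 and 57.1 CPM, above CON but under the threshold (0.89). In AD at 12 h its change was -0.88, and without replicate 1 it was called lower (-1.31, adjusted p = 3.61e-05). Loxl2 rose in CH at 72 h, from 5.16, 3.34 and 6.52 CPM to 13.6, 12.2 and 11.8 CPM (log2 fold change 1.20, adjusted p = 0.000119), and was just under the threshold without replicate 2 of CON (0.99) or after rescaling to the listed genes (0.997, adjusted p = 0.00144). Plod1, a lysyl hydroxylase of collagen, was at 1385, 1344 and 1490 CPM in CON and fell in AD to 790, 667 and 629 CPM at 12 h and 585, 668 and 345 CPM at 72 h (log2 fold changes -1.02 and -1.45, SE 0.16 each, adjusted p = 8.46e-06 and 1.73e-08). The fall at 12 h was under the threshold without replicate 3 of CON or without replicate 2 or 3 of AD (-0.98, -0.99 and -0.95). In OS and CH at 72 h Plod1 was at 1260 to 1440 CPM and 1442 to 1647 CPM. P4ha1, a prolyl hydroxylase subunit, was at 4.58, 3.76 and 5 CPM in CON and was called in no comparison with CON.

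The spondins, secreted glycoproteins with thrombospondin repeats, changed in all 3 media. Spon1 was at 40.4, 40.8 and 36.7 CPM in CON and rose by 72 h to 1203, 1172 and 1254 CPM in OS, 2578, 2680 and 1912 CPM in AD and 776, 703 and 668 CPM in CH. The log2 fold changes were 4.91, 5.88 and 4.15 (SE 0.13 each, adjusted p = 7.54e-23, 4.55e-25 and 1.74e-21). At 12 h the media differed, with 11.4, 10.2 and 10.8 CPM in OS (log2 fold change -1.77, adjusted p = 7.77e-13), 202, 209 and 205 CPM in AD (2.36, adjusted p = 2.89e-15) and 65.7, 68.4 and 59.7 CPM in CH (0.70, not called). At 3 h, Spon1 was at 12.7, 9.64 and 15.6 CPM in OS (-1.58, adjusted p = 1.47e-11) and at 20 to 30.8 CPM in AD and CH. Its groups at 12 and 72 h did not overlap between any media.

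Spon2, a spondin known for its part in innate immunity, went the other way in time. It was at 150, 143 and 151 CPM in CON and rose at 3 h to 343, 355 and 639 CPM in OS, 364, 345 and 395 CPM in AD and 408, 411 and 359 CPM in CH (log2 fold changes 1.52, 1.31 and 1.40, SE 0.38 each, adjusted p = 0.00149, 0.00568 and 0.00314). At 12 h it was called in no medium. At 72 h it had fallen to 43.3, 38.7 and 49.7 CPM in OS, 21.9, 28.4 and 3.01 CPM in AD and 59.0, 58.6 and 47.4 CPM in CH (log2 fold changes -1.74, -3.42 and -1.42, adjusted p = 0.000602, 1.31e-08 and 0.00334). Without replicate 3 of AD at 72 h its change there was -2.52, and without replicate 3 of OS at 3 h the rise there was 1.23 (adjusted p = 0.0186).

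**Figure D5:**
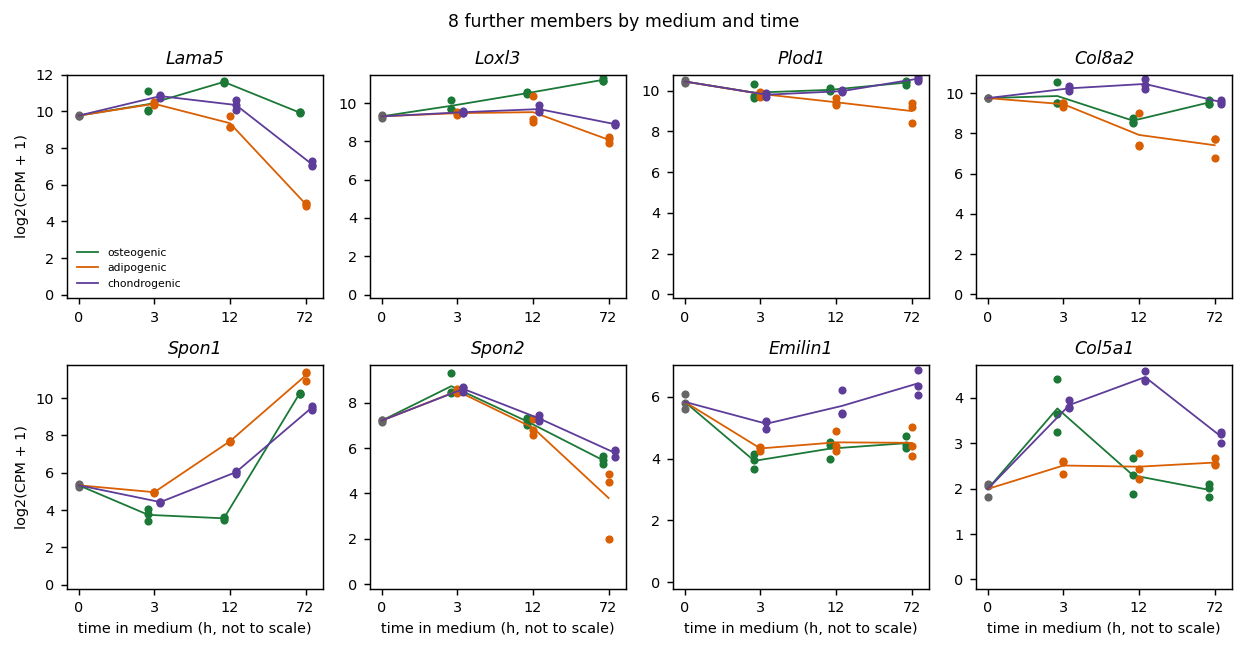
Values (log2(CPM + 1)) of 8 members against time in medium, with a point for each sample, grey for CON, and lines through the means of osteogenic, adipogenic and chondrogenic samples. Lama5 has samples near 30 CPM in adipogenic medium at 72 h, Loxl3 rises with time in osteogenic medium, and Spon1 and Spon2 take opposite courses between 3 and 72 h.

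Promoters of 5 members are shown, namely Postn, Lama1, Comp and Col9a2, which with Spon1 had the largest rises in CH at 72 h, and Lama5, which had the largest fall there. Each is the 250 bases before the annotated start in RefSeq (GRCr8), 5′ to 3′ on the strand of the gene, and capitals mark CAGAC, a core of SMAD binding sites, or its complement GTCTG. They lie at chr2:140677811-140678060 on the plus strand (Postn), chr9:115139298-115139547 on the plus strand (Lama1), chr16:19089549-19089798 on the minus strand (Comp), chr5:139892548-139892797 on the plus strand (Col9a2) and chr3:187695975-187696224 on the minus strand (Lama5).
Postn: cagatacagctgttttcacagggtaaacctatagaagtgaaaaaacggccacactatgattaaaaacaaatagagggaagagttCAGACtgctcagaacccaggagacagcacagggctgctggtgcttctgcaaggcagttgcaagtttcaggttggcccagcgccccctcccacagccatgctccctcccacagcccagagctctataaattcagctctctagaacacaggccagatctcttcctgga
Lama1: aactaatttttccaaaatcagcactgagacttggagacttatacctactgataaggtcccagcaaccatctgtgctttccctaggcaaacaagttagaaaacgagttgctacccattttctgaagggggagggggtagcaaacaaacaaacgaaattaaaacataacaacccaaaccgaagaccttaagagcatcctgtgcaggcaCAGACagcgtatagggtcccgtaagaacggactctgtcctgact
Comp: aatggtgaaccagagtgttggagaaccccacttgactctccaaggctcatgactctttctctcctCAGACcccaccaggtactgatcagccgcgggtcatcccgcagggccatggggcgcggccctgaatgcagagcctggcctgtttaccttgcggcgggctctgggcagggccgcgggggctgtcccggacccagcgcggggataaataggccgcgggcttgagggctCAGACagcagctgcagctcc
Col9a2: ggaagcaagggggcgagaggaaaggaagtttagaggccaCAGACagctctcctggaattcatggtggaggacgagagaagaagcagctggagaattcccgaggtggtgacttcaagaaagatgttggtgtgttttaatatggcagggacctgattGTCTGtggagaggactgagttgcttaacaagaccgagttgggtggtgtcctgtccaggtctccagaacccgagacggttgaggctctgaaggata
Lama5: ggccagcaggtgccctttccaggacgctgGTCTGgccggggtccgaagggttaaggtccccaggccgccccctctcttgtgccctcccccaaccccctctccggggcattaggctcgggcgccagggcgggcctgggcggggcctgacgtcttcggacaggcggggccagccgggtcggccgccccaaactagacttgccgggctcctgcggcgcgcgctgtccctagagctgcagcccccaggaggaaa

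RefSeq promoters were found for 25 of the 34 tested members. CAGAC on either strand was in 14 of the 25, beside 42.9% of all 33469 promoters of the same length. A SOX-type word, ACAAAG or ACAATG on either strand, was in the windows of Spon2 and Thbs3 (2 of 25, beside 25.3% of all promoters) and in none of the 5 shown. The AP-1-type word TGANTCA was in that of Col6a1 alone (1 of 25, beside 6.34%). A match is a description of the letters, and nothing follows from a missing one about a factor.

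Lineages at the same time were set against each other to separate the media from time in culture. At 72 h, CH differed from AD in 21 members, 18 higher and 3 lower in CH (beside 16.5% and 9.01% of all tested genes, 25.5% in all), and from OS in 21 members, 14 higher and 7 lower (beside 11.1% and 8.55% of all tested genes, 19.6% in all). These comparisons share the CH samples. Lama1, Col9a2 and Postn had the largest differences higher in CH, with log2 differences of 6.88, 5.09 and 4.85 from AD (SE 0.31, 0.34 and 0.29, adjusted p = 1.05e-17, 1.84e-13 and 9.43e-15) and 7.70, 4.60 and 4.09 from OS (adjusted p = 1.34e-18, 2.3e-12 and 6.52e-13). As OS had at most 1 read of Lama1 per sample at 72 h, the difference from it was at least 464-fold. Lower in CH than in AD were Spon1, Lama4 and Col4a2 (log2 differences -1.73, -1.45 and -1.10), of which Col4a2 was not called without replicate 3 of AD (-0.73), and lower than in OS most of all Lama5 and Loxl3 (-2.81 and -2.31). OS and AD at 72 h differed in 11 members, 9 higher and 2 lower in OS (beside 9.21% and 4.52% of all tested genes, 13.7% in all), led by Lama5, Loxl3 and Col8a2 with log2 differences of 4.99, 3.13 and 2.12 (adjusted p = 6.54e-19, 2.21e-13 and 7.79e-07), while Lama4 was lower in OS (-1.34). Without replicate 3 of AD at 72 h these counts were 23 for CH against AD and 10 for OS against AD, the latter without Fbn2 and Spon2 (0.98 and 0.78 in place of 1.42 and 1.68). Rescaling to the listed genes gave 17 higher and 6 lower for CH against AD, beside 11.4% and 17% of all tested genes. For OS against AD it gave 8 higher and 4 lower, beside 5.52% and 8.04%. After median-ratio scaling OS against AD had 8 higher and 3 lower, beside 5.5% and 7.66%. In each of these fits more of all tested genes were lower than higher, the reverse of the split as reported.

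At 12 h, CH differed from OS in 15 members, 14 higher and 1 lower in CH (beside 7.08% and 8.87% of all tested genes, 16% in all), and from AD in 14 members, 13 higher and 1 lower in CH (beside 7.04% and 6.56% of all tested genes, 13.6% in all). Higher in CH than in OS were Lama1, Spon1 and Col5a1 (log2 differences 3.00, 2.47 and 2.16), and Lama5 was the member lower in CH (-1.26). Against AD, Col8a2, Lama1 and Lox were highest in CH (2.54, 2.39 and 2.35) and Spon1 was lower (-1.65). OS and AD at 12 h differed in 7 members, 4 higher and 3 lower in OS (beside 6.99% and 6.17% of all tested genes, 13.2% in all), among them Lama5 and Lox (2.25 and 1.42) and Spon1 and Lamc1 (-4.13 and -1.40). The size of that list was not stable: it was 5 to 13 members with single samples left out, 13 without replicate 1 of AD (all 7 included), and 12 with edgeR. Without the same sample CH and AD at 12 h differed in 15 members, 13 of the 14 among them, and Hapln4 was no longer called (0.94). At 3 h the lineages were closer. CH was higher than OS in 4 members, 5 without replicate 3 of OS (beside 5.07% and 2.25% of all tested genes, 7.31% in all), led by Col5a2, Lama1 and Fbln2 (1.69, 1.55 and 1.43), and higher than AD in 6 members (beside 5.13% and 4.22% of all tested genes, 9.35% in all), led by Col5a2, Fbln2 and Col5a1 (1.87, 1.56 and 1.33), with no member lower in either. After median-ratio scaling 3 members were called in CH against AD, all higher, beside 4.45% higher and 4.49% lower of all tested genes. OS and AD at 3 h differed in 4 members, Col5a1 and Col4a3 higher in OS (1.26 and 1.22) and Spon1 and Hapln4 lower (-1.21 and -1.15), beside 2.77% and 4.88% of all tested genes, 7.66% in all, and Col5a1 was not called without replicate 3 of OS.

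Successive times of each medium were also compared. From 12 to 72 h of CH, 9 members rose and 4 fell (13 of 34, beside 7.98% and 5.23% of all tested genes, 13.2% in all), with Comp, Postn, Col24a1, Col9a2 and Spon1 higher by 4.43, 3.68, 3.67, 3.65 and 3.45 on the log2 scale and Lama5 lower by -3.22. From 3 to 12 h of CH, 6 rose and 1 fell (7 of 34, beside 1.74% and 5.94% of all tested genes, 7.68% in all). The share called in total was thus above that of all genes in both steps. The share that fell from 3 to 12 h, 2.94% of members, was below that of all genes. In OS 2 rose and 5 fell from 3 to 12 h (7 of 34, beside 4.7% and 3.12% of all tested genes, 7.82% in all), and 5 rose and 5 fell from 12 to 72 h (10 of 34, beside 9.67% and 13.5% of all tested genes, 23.2% in all). With edgeR 19 members were called for 12 to 72 h of OS. Rescaling to the listed genes gave 8 higher and 5 lower there, beside 12.9% and 9.81% of all tested genes. The largest step of any member between successive times was that of Spon1 from 12 to 72 h of OS, 6.68 on the log2 scale (SE 0.13, adjusted p = 1.17e-26). In AD 3 rose and 4 fell from 3 to 12 h (7 of 34, beside 5.13% and 7.82% of all tested genes, 12.9% in all), and 2 rose and 7 fell from 12 to 72 h (9 of 34, beside 5.18% and 10.8% of all tested genes, 16% in all), the latter led by Lama5 (-4.40) and Spon2 (-3.10). After median-ratio scaling the step from 12 to 72 h of AD had 2 higher and 6 lower, beside 9.9% and 5.82% of all tested genes. Without replicate 3 of AD at 72 h that step of Spon2 was -2.21 and that of Fbn2 was not called (-0.87 in place of -1.31), with 9 members in all. Without replicate 1 of AD at 12 h, 10 members were called from 3 to 12 h (Col4a2, Lama1 and Lox in addition) and 11 from 12 to 72 h (Col9a2 and Lamc1 in addition). Without replicate 3 of OS at 3 h, 6 were called from 3 to 12 h of OS, and Col8a2 was not (-0.88 in place of -1.23).

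Other genes that make or fill the matrix were counted from 2 lists. Of 9 tested genes for collagen folding and trimming, 4 rose in CH at 12 h (Adamts14, Fkbp14, P3h1 and the collagen chaperone Serpinh1) and 3 at 72 h (Adamts14, P3h1 and Colgalt2), beside 9.44% and 11.6% of all tested genes. In OS at 12 h 1 fell (beside 7.15%). None rose in AD at 3, 12 or 72 h, beside 12.4%, 8.14% and 6.19% of all tested genes. None fell there either, beside 6.42%, 5.55% and 9.08%. Serpinh1 was at 1034 to 1389 CPM in CON and 2611 to 2894 CPM in CH at 12 h. P3h1, a prolyl 3-hydroxylase, was at 290 to 304 CPM in CON and 1030 to 1168 CPM in CH at 12 h. Colgalt2, a galactosyltransferase acting on collagen, had no read in CON and was at 33.1 to 42.1 CPM in CH at 72 h. Of 11 other matrix genes, 6 rose and 1 fell in CH at 72 h (beside 11.6% and 6.37% of all tested genes), and 4 rose and 2 fell in AD at 72 h (beside 6.19% and 9.08%). At 3 h, 1 rose and 2 fell in OS (beside 11.7% and 6.67% of all tested genes) and in AD (beside 12.4% and 6.42%). In CH at 3 h, 3 rose and 2 fell (beside 13.1% and 4.88%). Mgp, an inhibitor of calcification, and the small proteoglycan Lum were lower in all 3 media at 3 h (log2 fold changes of Mgp -3.96, -3.64 and -3.28, and of Lum -3.01, -2.71 and -3.20, in OS, AD and CH). At 12 h none rose and 2 fell in OS (beside 14.7% and 7.15% of all tested genes), and 1 rose and 1 fell in AD (beside 8.14% and 5.55%). In CH at 12 h, 4 rose and 2 fell (beside 9.44% and 5%), and in OS at 72 h 1 rose and none fell (beside 7.2% and 5.29%). Mgp was higher than CON in AD and CH at 72 h (1.26 and 1.78). Tgfbi, a protein induced by TGF-beta that binds collagen, was at 13.7 to 16.2 CPM in CON and 1485 to 1616 CPM in CH at 72 h (log2 fold change 6.62). The basement membrane linker Nid1 was at 3772 to 3805 CPM in CON, 9279 to 9789 CPM in CH at 72 h and 1263 to 2222 CPM in AD at 72 h (log2 fold changes 1.34 and -1.06).

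Of the 29 members that were not tested, 20 stayed under 1 CPM in every sample. The highest was Emilin3, with up to 16 reads (2.41 CPM, in OS at 72 h). Col4a1, Col9a1, Col15a1, Col28a1, Lamc3, Matn2, Sparcl1 and Dcn reached between 1.07 and 1.54 CPM in their highest sample, and Col10a1, the collagen of hypertrophic cartilage, 0.892 CPM in AD at 3 h. Hapln1 reached 0.783 CPM in OS at 3 h. Acan, Vcan, Matn3, Fmod, Omd and P4ha2 were among the 17 with at most 3 reads in any sample, of which at most 0.769 CPM was seen. No member was without a read in all 30 samples.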

How the data were processed

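RNA-seq values of 30 samples were analysed. According to the study, mRNA libraries were made with a NEBNext kit and sequenced on an Illumina NovaSeq, whereas the labels describe removal of ribosomal RNA. Trimmomatic, HISAT2 and StringTie are named in the submitters' processing notes. The genome build and the strand setting of counting are not given in the sources used here. The deposited values are named FPKM but are CPM: in every sample 100% of values were whole multiples of 1 step (within 0.01 reads), which gave the reads and totals.

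Each sample had 10803 values under 9999 names, and values of the same name were summed (Fbln1 and Lox among the members). All 63 members matched a RefSeq symbol (GRCr8). The filter kept 4363 genes that reached 1 CPM in 3 or more samples, which were fitted in limma 3.58.1 (R 4.3.3, eBayes with trend) on log2(CPM + 1) in 1 model of the 10 groups, with Benjamini-Hochberg adjustment per comparison and the thresholds of the study. The SE is that of the model. The test had been planned for FPKM. Simulated data with known changes were used to check the code. The members and lists were chosen with earlier results of these data known. Values are printed for members fixed by name, for the 3 largest rises and falls without overlap in comparisons of groups with CON and of lineages, for the 5 members with the highest means, and for members called in all 9 or in both directions. Other members called against CON are also given. Of the 34 tested members, 1 is not reported here by name; it stays in the counts, medians and fits. Alternatives were a pseudocount of 0.1, no filter, median-ratio scaling, rescaling to the listed genes outside the members, a replicate block, edgeR 4.0.16 (quasi-likelihood) on the recovered reads, rows of the same name apart, and each sample left out in turn. All 30 pairs of replicates differed by more than counting noise. Tables and figures used Python 3.11.15, pandas 2.3.3 and matplotlib 3.10.9.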

Additional observations from a re-analysis of the deposited data

Results flagged for a closer look

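For 6 members, the effect of one medium against CON was called in the direction opposite to that of another medium at the same time. The difference was tested as the direct contrast of the 2 media in limma, in which CON cancels out. Members were listed only where this contrast was also called. Its size and p-value are thus partly set by the selection and describe the reversal without being independent support for it.

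At 12 h, Spon1 fell in OS (-1.77) and rose in AD (2.36), a log2 difference of -4.13 (SE 0.13, adjusted p = 8.86e-21), with all 3 OS samples below and all 3 AD samples above CON. At 72 h, Loxl3 rose in OS (1.90) and fell in AD (-1.22), a log2 difference of 3.13 (SE 0.19, adjusted p = 2.21e-13). Lama1 rose in CH at 72 h (5.31) and fell in OS (-2.39) and AD (-1.57), with log2 differences of 7.70 from OS (SE 0.31, adjusted p = 1.34e-18) and 6.88 from AD (adjusted p = 1.05e-17). The size of 7.70 depends on the pseudocount, because OS held at most 1 read of Lama1 per sample.

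At 72 h, Col24a1 rose in CH (2.43) and fell in OS (-1.06) and AD (-1.14), with log2 differences of 3.49 from OS (SE 0.27, adjusted p = 4.63e-12) and 3.57 from AD (adjusted p = 1.91e-12). Col9a2 rose in CH (3.96) and fell in AD (-1.13), a log2 difference of 5.09 (SE 0.34, adjusted p = 1.84e-13). Fbn2 rose in CH (1.34) and fell in AD (-1.86), a log2 difference of 3.20 (SE 0.27, adjusted p = 3.01e-11). Dixon's test for outlying samples was not applied, as every group had 3 samples.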

How the results depend on the processing

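Of the 86 calls of members against CON, 72 were made in every fit that left out 1 sample and 14 were lost in at least 1, each named with its gene above. No call changed direction. Among the other settings, 7 of the 86 were lost after rescaling to the listed genes, 4 with edgeR, 3 with a pseudocount of 0.1, 3 with median-ratio scaling, 2 with no filter, and none with rows of the same name apart. Counts of called members that moved by more than 1.5 times were 8 in place of 5 in AD at 3 h with a pseudocount of 0.1, 8 in place of 5 in CH at 3 h with edgeR, 3 in place of 6 for CH against AD at 3 h with median-ratio scaling, 12 in place of 7 for OS against AD at 12 h with edgeR (5 to 13 with single samples left out), and 19 in place of 10 for OS at 72 h against 12 h with edgeR. The cause was not tested. With single samples left out, the members called against CON numbered 8 to 10, 8 to 10 and 9 to 10 in OS, 5 to 7, 5 to 8 and 13 to 15 in AD, and 5 to 6, 9 to 10 and 17 to 19 in CH at 3, 12 and 72 h. With a replicate block, the counts in the 9 comparisons with CON were as reported (9, 10 and 9 in OS, 5, 6 and 14 in AD, and 5, 9 and 19 in CH) and none of the 86 calls was lost. Samples of the same number did not deviate together (correlation of deviations over 135 pairs between groups -0.226 to 0.16, median -0.0085, 3 over 0.1). The numbers come from the sample titles, and this check cannot show whether samples of the same number share a rat or a culture. The depth limits members below 0.332 to 0.769 CPM, where neither a level nor a fold change could be told from 0.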
